A study of Drosophila melanogaster with 12 samples.

Results

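Ribosome footprints and RNA were compared for 8 genes of iron storage, iron sensing and iron transport in whole female *Drosophila melanogaster*: the ferritin subunits Fer1HCH, Fer2LCH and Fer3HCH, the succinate dehydrogenase subunit SdhB, the aconitases Irp-1A and Irp-1B, the carrier Tsf1 and the transporter Mvl. The genes were chosen by name for their roles, out of 14405 rows left after the transcripts in the count table were summed by gene. All 8 were in the table, and 7 of them averaged 10 counts or more in both RNA and footprints. The exception was Fer3HCH.

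Ferritin is the iron store of animal cells. In flies its heavy chain (Fer1HCH, which oxidises iron) and its light chain (Fer2LCH) assemble together inside the secretory pathway, and part of the protein is released into the hemolymph. In many animals, iron regulatory proteins bind hairpins called iron-responsive elements in mRNA 5′ untranslated regions and hold back translation when iron is scarce. In the fly such elements are known in SdhB and in some splice forms of Fer1HCH and are not known in Fer2LCH; Irp-1A can bind them, whereas Irp-1B is known only as an enzyme that converts citrate to isocitrate.

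Ribo-Seq, the sequencing of RNA fragments protected by ribosomes, gave 3 libraries for each genotype, wild-type and *Polr3D EY/+*. RNA-Seq gave 2 wild-type and 3 mutant libraries with values here. Wild-type flies (White Dahomey in the labels) came from an outbred population cleared of *Wolbachia*, carrying *w1118* or *v1*. *Polr3D EY/+* flies (dC53EY22749 in the labels) carried in that background 1 copy of a P-element insertion in *Polr3D*, which encodes a subunit of RNA polymerase III; flies homozygous for it are not viable. The age of these flies was not given in the sources used here, the mutant is a single insertion allele, and cycloheximide was given in the Ribo-Seq samples to halt elongation. The question was whether partial loss of RNA polymerase III alters the translation of particular mRNAs.

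Values are counts summed over the transcripts of a gene and scaled to 1000000 protein-coding counts in each library (CPM). Each RNA value is thus a share of the mRNA pool of whole flies. Each footprint value is a share of the footprints on protein-coding transcripts. Ribo-Seq libraries held 1127599 to 3192166 protein-coding counts, 1.90% to 3.67% of their totals of 47136883 to 87054266, and RNA-Seq libraries held totals of 24496792 to 28984254. A floor of 3 counts was worth 0.940 to 2.66 CPM in footprints and 0.104 to 0.123 CPM in RNA, and covers counting error only. *Polr3D* RNA was 51.7 and 63.6 CPM in wild-type and 30.5, 29.6 and 30.5 CPM in mutant libraries, a log2 change of -0.92 (SE 0.25, DESeq2 adjusted p 0.0294), lower in mutants as labelled. Summed male markers (6 genes) reached 56.8 CPM in the wild-type 2 and 28.6 CPM in the mutant 3 Ribo-Seq library and 19.7 CPM in the mutant 1 RNA-Seq library, against 0 to 4.07 CPM in the other 8 libraries. The labels do not say whether replicates were separate cultures, so p-values measure the spread between these samples, which may be technical.

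The ferritin heavy chain was the clearest difference among the 8 genes. Fer1HCH (FBgn0015222; chromosome 3R, 30385573 to 30388178, minus strand, BDGP6) had footprints of 1206, 1301 and 1208 CPM in wild-type and 1618, 1546 and 1412 CPM in *Polr3D EY/+* libraries. Every mutant library was above every wild-type library. Its RNA was 1043 and 1070 CPM in wild-type and 1185, 1189 and 1156 CPM in mutant libraries, again without overlap. The means were 1238 ± 54.2 (SD, n = 3) and 1525 ± 105 CPM (n = 3) for footprints, a ratio of 1.23, and 1057 ± 18.6 (n = 2) and 1177 ± 17.96 CPM (n = 3) for RNA, a ratio of 1.11. In whole flies, more cells of a type and more RNA per cell cannot be told apart.

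In the DESeq2 model given by the study, which has terms for replicate number, genotype, assay and their interaction and leaves out the wild-type 3 Ribo-Seq library, the footprint change of Fer1HCH was 0.33 on the log2 scale (SE 0.10, unadjusted p 0.00137). It was not called (adjusted p 0.249; the call rule was an adjusted p under 0.1 over all genes). The fit decided the call. The paper removed wild-type replicate 3 because it lay apart from the other samples in a principal component analysis of RNA-Seq. Its Ribo-Seq library is in the fit with all 11 libraries and in the fit of Ribo-Seq alone. With all 11 libraries the change was 0.31 (adjusted p 0.00385; 0.535% of genes called), with no replicate block 0.31 (adjusted p 0.000250; 0.586% called) and with the Ribo-Seq libraries fitted alone 0.32 (adjusted p 0.0270; 0.77% called). Without the mutant 1 RNA-Seq library it was 0.34 (DESeq2 adjusted p 0.0977, 0.256% called). These shares are of the genes tested in each fit, and those numbers differ. The genes tested numbered 14405 with all 11 libraries, 9898 with no replicate block, 3765 with Ribo-Seq alone and 9361 without the mutant 1 RNA-Seq library. The main fit tested 14368. In edgeR the adjusted p was 0.961 with a log2 change of 0.35, and the log2 change lay between 0.28 and 0.39 in all 17 alternatives. The RNA change was 0.18 (SE 0.10, adjusted p 1.0) and was called in 0 of 16 alternatives.

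The light chain stood in the same order. Fer2LCH (FBgn0015221; 3R, 30387804 to 30390584, plus strand) had footprints of 1650, 1810 and 1680 CPM in wild-type and 1977, 2035 and 2050 CPM in mutant libraries, and RNA of 561 and 592 CPM against 647, 601 and 683 CPM. The genotypes did not overlap in either assay, although the wild-type 2 and mutant 2 RNA-Seq libraries lay close together. Mean footprints were 1713 ± 85.2 and 2021 ± 38.5 CPM (n = 3 each), a ratio of 1.18, and mean RNA was 577 ± 22.2 (n = 2) and 644 ± 41.0 CPM (n = 3), a ratio of 1.12. The footprint change was 0.21 (SE 0.11, unadjusted p 0.0455, DESeq2 adjusted p 1.0) and was called only with the Ribo-Seq libraries alone (0.26, adjusted p 0.0956). The RNA change was 0.12 (SE 0.10, adjusted p 1.0).

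The third ferritin gene was at the floor. Fer3HCH (FBgn0030449; chromosome X, 13107382 to 13108194), a mitochondrial ferritin known for expression in the testis, had 0 footprints in all 6 Ribo-Seq libraries. It had 3 RNA counts in the mutant 1 library and 0 in the other 4 RNA-Seq libraries. The mutant 1 RNA-Seq library is the one that also held male marker counts; the part of those counts in this value was not tested.

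**Figure D1:**
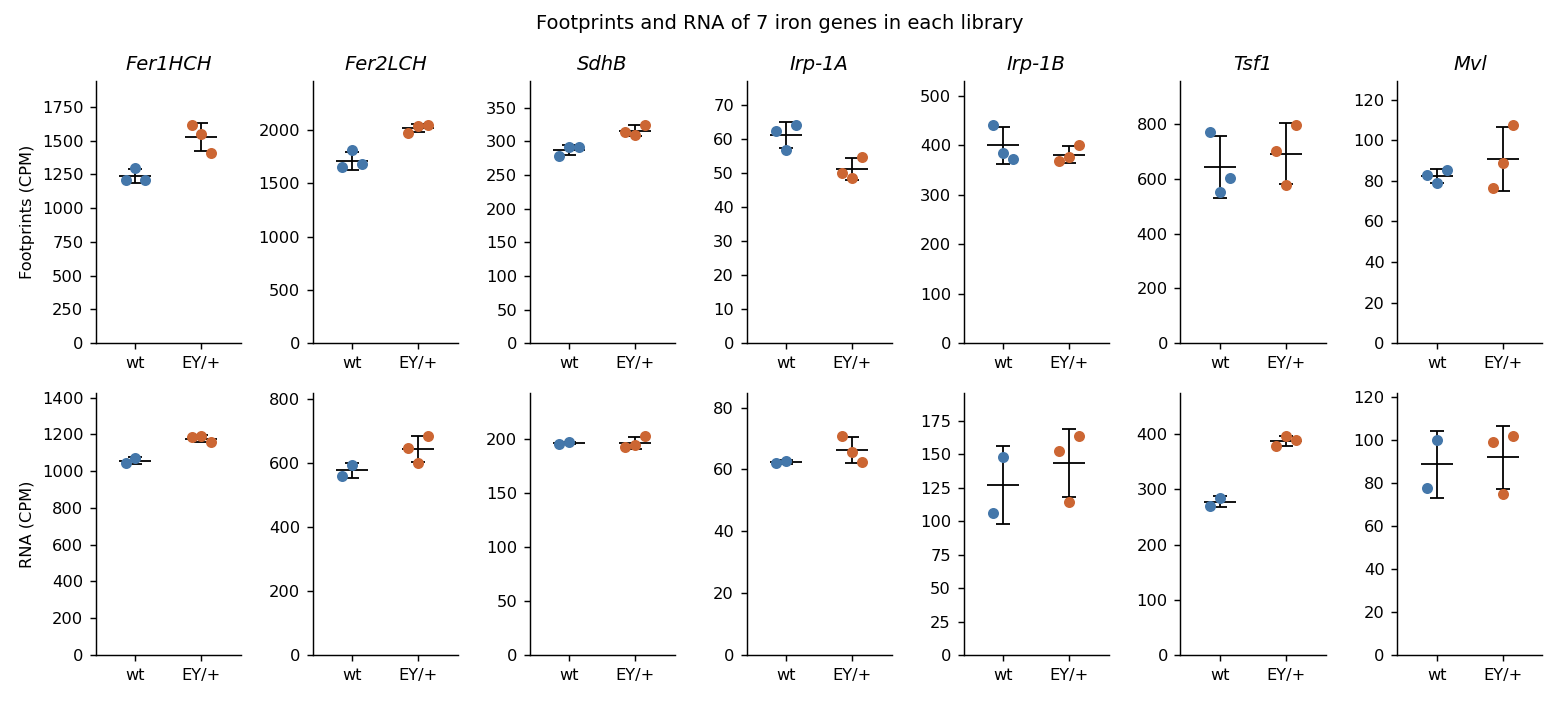
Footprints (top, CPM) and RNA (bottom, CPM) of the 7 genes above the count minimum in wild-type (wt, blue) and *Polr3D EY/+* (EY/+, orange) libraries; points are libraries, horizontal bars are means and whiskers are SD, with linear axes from 0. Footprints of Fer1HCH, Fer2LCH and SdhB lay higher in all 3 mutant libraries and those of Irp-1A lower, and Tsf1 RNA was 378 to 396 CPM in mutants against 270 and 285 CPM in wild-type flies.

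SdhB (FBgn0014028; 2R, 6807626 to 6809172, plus strand) encodes the iron-sulfur subunit of complex II, which oxidises succinate in the mitochondrion. Its footprints were 279, 291 and 291 CPM in wild-type and 314, 309 and 325 CPM in mutant libraries. Its RNA was 196 and 198 CPM against 193, 195 and 203 CPM. Footprints were thus higher in every mutant library, with means of 287 ± 6.99 and 316 ± 8.002 CPM (n = 3 each), a ratio of 1.10, whereas RNA overlapped. The model gave a footprint change of 0.14 (SE 0.13) and an RNA change of -0.03 (SE 0.11), each with a DESeq2 adjusted p of 1.0, and neither was called in any alternative. The partner subunits overlapped between genotypes in each assay: footprints were 355 to 384 CPM in wild-type and 343 to 358 CPM in mutants for SdhA, 86.2 to 121 and 103 to 125 CPM for SdhC, and 78.9 to 96.7 and 88.0 to 97.4 CPM for SdhD.

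Irp-1A (FBgn0024958; 3R, 22721320 to 22724587, minus strand), the iron regulatory protein and cytosolic aconitase, went the other way in footprints. It had 62.2, 56.8 and 64.1 CPM in wild-type and 50.02, 48.6 and 54.7 CPM in mutant libraries, so that every mutant library was lower. Those values rest on 57 to 155 counts per library. RNA was 62.0 and 62.7 CPM in wild-type and 70.7, 65.5 and 62.4 CPM in mutants, which overlapped. The model gave -0.20 (SE 0.22) for footprints and 0.09 (SE 0.17) for RNA, each with an adjusted p of 1.0 in DESeq2. The 95% interval of the footprint change ran from -0.64 to 0.24.

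Irp-1B (FBgn0024957; 3R, 10408618 to 10412869, minus strand), the aconitase without known binding to iron-responsive elements, overlapped between genotypes in each assay. Its footprints were 442, 385 and 373 CPM in wild-type and 368, 376 and 400 CPM in mutant libraries. RNA was 106 and 148 CPM in wild-type and 153, 114.7 and 163 CPM in mutants. The RNA values fell into a low pair, wild-type 1 and mutant 2, and a higher set of wild-type 2, mutant 1 and mutant 3, a division that crosses the genotypes. Within the pair the values were 106 and 114.7 CPM, and within the set 148 against 153 and 163 CPM. The fitted changes were 0.09 (SE 0.19) in RNA and -0.17 (SE 0.20) in footprints (DESeq2 adjusted p 1.0 for each), and the sign in RNA turned without wild-type 1 (-0.20).

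Tsf1 (FBgn0022355; X, 18387084 to 18390344, plus strand) encodes a transferrin, a secreted carrier that moves iron between tissues. Its RNA showed the largest difference among the 7 genes, 270 and 285 CPM in wild-type against 378, 396 and 389 CPM in mutant libraries, a ratio of 1.40. Its footprints showed none beyond the spread, at 771, 553 and 604 CPM in wild-type and 702, 577 and 798 CPM in mutants. The RNA change was 0.42 (SE 0.17, unadjusted p 0.0129, DESeq2 adjusted p 0.975) and was called only with the RNA-Seq libraries alone (0.48, SE 0.10, adjusted p 0.00132; 0.392% of genes called). The footprint change was 0.02 (SE 0.17, adjusted p 1.0).

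Mvl (FBgn0011672; 3R, 21051383 to 21060800, minus strand) encodes a metal transporter of the family that carries iron and manganese across membranes. Its footprints were 82.9, 78.9 and 85.5 CPM in wild-type and 76.4, 88.7 and 108 CPM in mutants, and its RNA was 77.7 and 99.8 CPM against 99.1, 74.8 and 102 CPM. Both assays overlapped, and RNA was again low in wild-type 1 and mutant 2. The changes were -0.06 (SE 0.20) in RNA and 0.08 (SE 0.24) in footprints (DESeq2 adjusted p 1.0 for each).

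Over the 7 genes above the minimum, footprints of 3 were higher in all mutant libraries than in all wild-type libraries; over the 7642 genes above that minimum this held for 5.4%. For 1 gene footprints were lower in all mutant libraries, against 6.63% of all genes. RNA of 3 genes was higher without overlap (4.71% of all genes). In both assays at once it was 2 genes, the ferritin chains, against 0.458% of all genes. The ferritin chains are neighbouring genes, and the 7 genes were chosen with earlier results of these data known, so these counts are a description.

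Translation efficiency is the difference between the footprint and RNA changes. The model called 0 of the 8 genes for RNA, for footprints or for translation efficiency. Over all genes tested, DESeq2 called 1.02%, 0.362% and 0.303% in these contrasts. At an unadjusted p under 0.05 there were 1, 2 and 0 of the 8 genes, beside 85, 279 and 127 of the 7642 genes above the minimum. In edgeR 0 were called in each contrast (0.0465%, 0.0186% and 0.0% of all genes), and 1, 1 and 0 had an unadjusted p under 0.05, beside 88, 379 and 196 of the 7642. The median changes of the 7 genes were 0.09 for RNA, 0.08 for footprints and 0.09 for translation efficiency, against 0.00, -0.01 and -0.01 over all 7642 genes. In translation efficiency the largest values were those of Tsf1, -0.40 (SE 0.23, unadjusted p 0.0823), and Irp-1A, -0.29 (SE 0.27). Fer1HCH was at 0.15 (SE 0.14, 95% interval -0.12 to 0.42) and SdhB at 0.17 (SE 0.16, interval -0.14 to 0.49), each with a DESeq2 adjusted p of 1.0.

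**Figure D2:**
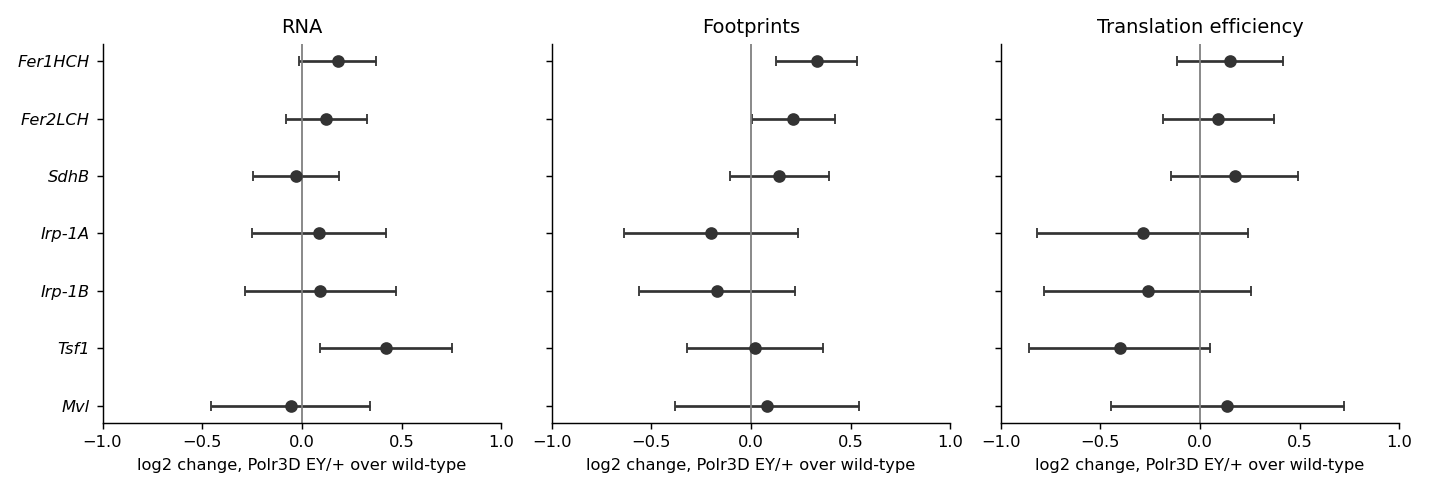
Log2 change in *Polr3D EY/+* over wild-type flies in RNA, footprints and translation efficiency from the DESeq2 model on 10 libraries; points are estimates and whiskers are 95% intervals. The intervals of Tsf1 in RNA and of Fer1HCH and Fer2LCH in footprints did not reach 0 before adjustment, and none of the 7 genes was called after it.

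Markers of other cell types were set beside these values. Summed hemocyte markers (5 genes) were lower in mutant RNA, 68.8 to 76.3 CPM against 81.7 to 89.4 CPM in wild-type, without overlap. This was the direction opposite to the ferritins and Tsf1. How many of all genes had lower RNA without overlap was not counted, and 4.71% of 7642 genes had higher RNA without overlap. Footprints of the hemocyte markers overlapped (342 to 409 against 379 to 395 CPM). Fat body markers (4 genes) overlapped in RNA (1436 to 1810 against 1504 to 1672 CPM) and in footprints (8662 to 10056 against 9059 to 9879 CPM). Gut enzymes (9 genes) also overlapped in RNA (9168 to 9560 against 9333 to 9605 CPM) and footprints (13213 to 14483 against 11327 to 14661 CPM). The female labels were matched by late eggshell genes, 17535 to 23397 CPM of RNA, with 0 of 7 at 0 in any library. Yolk protein RNA was lowest in mutant 2 and wild-type 1 (19540 and 21381 CPM against 24610 to 27887 CPM), the same pair that was low in Irp-1B and Mvl. The part of these markers in the results was not tested.

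Footprints per RNA differed more between the genes than between the genotypes. This measure, the log2 ratio of footprint CPM to RNA CPM at the same replicate number, had a median of -0.18 in wild-type flies over 7624 protein-coding genes above the minimum. The numbers are not stated to join the same flies across assays. For Fer2LCH the ratio was 1.56 and 1.61 in wild-type and 1.61, 1.76 and 1.59 in mutants, at the 94.9th percentile of genes in wild-type and the 95.3rd in mutants. For Fer1HCH it was 0.21 and 0.28 against 0.45, 0.38 and 0.29, at the 66.2nd and 71.2nd percentile. Turned back from the mean log2 ratio over 5 replicates, footprint CPM over RNA CPM was 3.08 for the light chain and 1.25 for the heavy chain. This ratio of shares is not scaled for length and is not a number of footprints per mRNA.

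The ferritin chains changed order between the assays. Per kilobase of transcript, RNA of Fer1HCH was 774 to 891 CPM per kb and that of Fer2LCH 514 to 626, so that the heavy chain exceeded the light chain 1.36 to 1.62 times in 5 of 5 libraries. Per kilobase of coding sequence, footprints of Fer1HCH were 1951 to 2619 CPM per kb and those of Fer2LCH 2412 to 2997, and the ratio of heavy to light was 0.762 to 0.906 in 6 of 6 libraries. Footprints per RNA of the heavy chain, as a ratio of CPM not scaled for length, were 0.384 to 0.447 times those of the light chain in the 5 replicates, and 0.520 to 0.613 times with both assays taken per kilobase as above. The coding length was that of the transcript with the most RNA, 618 nucleotides for Fer1HCH and 684 for Fer2LCH.

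The aconitases also differed. Irp-1B had log2 ratios of 2.06 and 1.38 in wild-type and 1.27, 1.71 and 1.29 in mutants (95.7th and 93.6th percentile), and Irp-1A had 0.01 and -0.13 against -0.49, -0.43 and -0.18 (54.6th and 44.1st percentile). Per kilobase, Irp-1B exceeded Irp-1A 1.70 to 2.60 times in RNA and 5.84 to 7.76 times in footprints. Footprints per RNA of Irp-1B, as a ratio of CPM not scaled for length, were 2.78 to 4.41 times those of Irp-1A in the 5 replicates. These genes are paralogues, and how far their sequences could share fragments was not tested. The mitochondrial aconitase mAcon1 had a mean log2 ratio of 1.07 ± 0.29 (SD, n = 5). For mAcon2 no ratio was taken, since it had 0 footprints in all 6 libraries and only 0 to 2 RNA counts per library.

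SdhB, whose product joins SdhA, SdhC and SdhD in complex II, lay above its partners in each of 5 replicates. Its log2 ratio was 0.51 and 0.56 in wild-type and 0.71, 0.67 and 0.68 in mutants. The means over 5 replicates were 0.39 ± 0.08 for SdhA, -0.16 ± 0.33 for SdhC and -0.26 ± 0.22 for SdhD. The difference from SdhA was only 0.03 in wild-type 1 and 0.19 to 0.39 in the other replicates. The genotypes did not overlap for SdhB and overlapped for each partner. Among the 7 genes, footprints per RNA were higher in every mutant replicate for 2, Fer1HCH and SdhB, and lower for 1, Irp-1A. With 3 mutant and 2 wild-type replicates, 7.4% of 7624 genes were higher in this way and 9.51% were lower. These ratios join libraries by replicate number, and the numbers are not stated to pair the samples across assays. For Fer1HCH the nearest values of the genotypes were 0.283 in wild-type 2 and 0.289 in mutant 3. Ratios for other ways of joining the libraries were not computed, so the lack of overlap is stated for this joining only. Footprints per kilobase of SdhB were 1.68 to 2.102 times those of SdhA, 1.38 to 1.95 times those of SdhC and 1.85 to 2.26 times those of SdhD. In RNA per kilobase the same ratios were 1.47 to 1.67, 0.745 to 0.990 and 1.17 to 1.46.

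Of the carriers, Tsf1 had log2 ratios of 1.51 and 0.96 in wild-type and 0.89, 0.54 and 1.04 in mutants (91.5th and 84.2nd percentile), and Mvl 0.10 and -0.33 against -0.37, 0.25 and 0.09 (52.5th and 56.9th). The genotypes overlapped for each. In order of mean footprints per RNA, the genes ran Fer2LCH (1.62 ± 0.08, SD, n = 5), Irp-1B (1.54 ± 0.34), Tsf1 (0.99 ± 0.35), SdhB (0.62 ± 0.09), Fer1HCH (0.32 ± 0.09), Mvl (-0.05 ± 0.28) and Irp-1A (-0.24 ± 0.21). These SD span both genotypes. They overlapped between Fer2LCH and Irp-1B, between Irp-1B and Tsf1, between Tsf1 and SdhB, and between Mvl and Irp-1A.

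**Figure D3:**
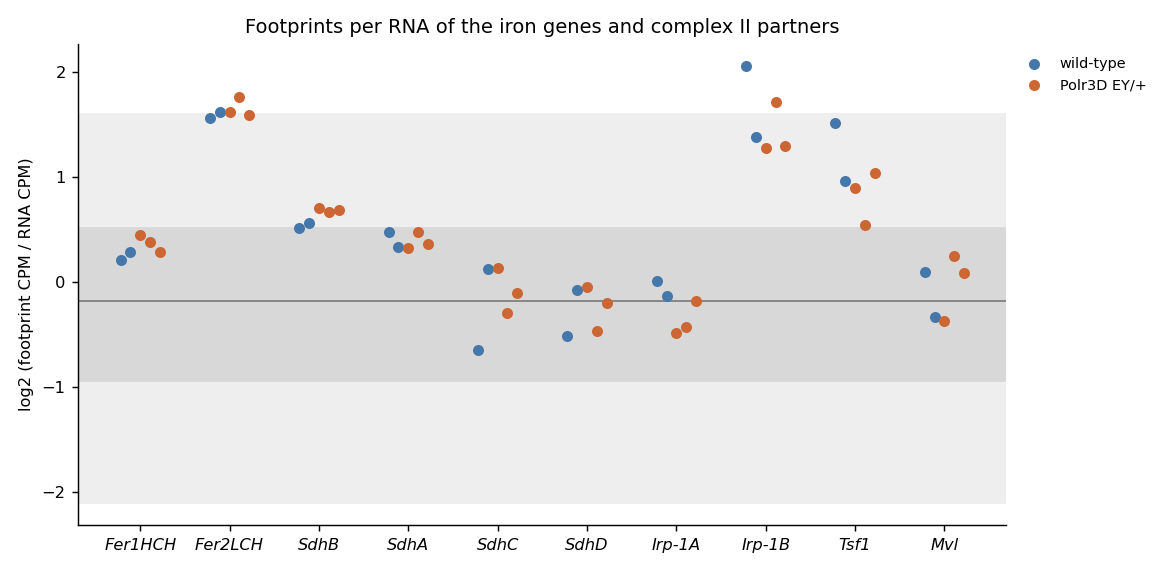
Log2 of footprint CPM over RNA CPM at the same replicate number for 7 iron genes and the complex II partners SdhA, SdhC and SdhD in wild-type (blue, 2 replicates) and *Polr3D EY/+* flies (orange, 3 replicates); the line is the median of 7624 protein-coding genes in wild-type flies, and the shaded bands span their 25th to 75th and 5th to 95th percentiles. All 5 points of Fer2LCH lay above 1.5, and all 5 of Fer1HCH between 0.21 and 0.45.

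Iron-responsive elements are known in some transcripts of Fer1HCH, and 7 of its 9 annotated transcripts were in the table. In RNA, FBtr0085631, with a 5′ untranslated region of 648 nucleotides, held 42.3% to 47.0% of the gene's counts. FBtr0085632 (106 nucleotides) held 27.2% to 30.1%, and FBtr0085634 (158 nucleotides) 22.6% to 24.9%. In footprints the assignment was different: FBtr0306587, which had 0 RNA counts in every library, held 69.4% to 81.7%, FBtr0085632 held 15.6% to 28.4%, FBtr0085631 held 2.26% to 4.07% and FBtr0085634 held 0.

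The coding sequence separates these transcripts. FBtr0306587 has a coding sequence of 729 nucleotides and a 5′ untranslated region of 70 nucleotides, and it is the shortest transcript of the gene in the table at 981 nucleotides. With the counts of all libraries pooled, the 4 transcripts with the 618-nucleotide coding sequence held 99.7% of RNA and 22.3% of footprints. The 729-nucleotide coding sequence held 0% and 77.6%. The pooled footprints lean on the mutant 2 library, with 4935 counts of the gene against 1467 to 1844 in the others. Salmon divides fragments between transcripts by a model, and footprints inside a shared coding sequence do not tell 5′ ends apart, so these shares are assignments and not a measure of which 5′ end was translated. Which transcripts hold the element was not determined here, since no transcript sequence was used.

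**Figure D4:**
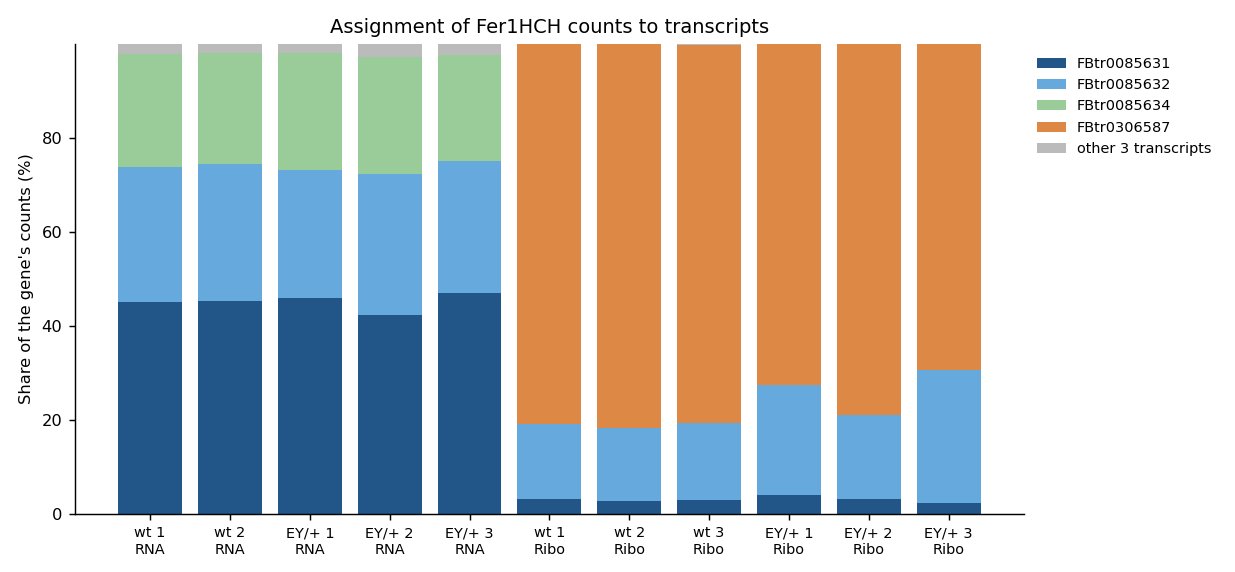
Share of the Fer1HCH counts (%) assigned to each transcript in 5 RNA-Seq and 6 Ribo-Seq libraries of wild-type (wt) and *Polr3D EY/+* (EY/+) flies; each bar is a library and sums to 100%. FBtr0306587 had 0 RNA counts and held 69.4% to 81.7% of the footprints, whereas FBtr0085631 held 42.3% to 47.0% of RNA and 2.26% to 4.07% of footprints.

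The difference between genotypes in Fer1HCH footprints was spread unevenly over the transcripts. FBtr0085632 had 193, 203 and 198 CPM in wild-type and 378, 277 and 400 CPM in mutant libraries, without overlap. FBtr0306587 had 975, 1063 and 974 CPM against 1174, 1221 and 980 CPM, which overlapped. With the model fitted to transcripts, where 3.21% of features were called in footprints and 2.26% in translation efficiency, FBtr0085632 was called in footprints at 0.78 (SE 0.19, DESeq2 adjusted p 0.00414) and with all 11 libraries at 0.82 (adjusted p 0.000125). In edgeR its footprint change was not called (0.82, adjusted p 0.453). In translation efficiency it was not called (0.68, SE 0.25, DESeq2 adjusted p 0.208; 0.72 and 0.198 with all 11 libraries). Since the fragments of a shared coding sequence are divided by the model, only the sum over transcripts is free of that division.

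The other genes had simpler transcripts. FBtr0332168 held 95.1% to 96.9% of Fer2LCH RNA and 96.6% to 100% of its footprints. Its footprint change was 0.18 (SE 0.08, DESeq2 adjusted p 0.416) and was called with all 11 libraries (0.24, adjusted p 0.0990), not in edgeR (adjusted p 0.993). The transcript begins at 30388830, outside the stretch where the annotated 5′ ends of Fer1HCH and Fer2LCH overlap on opposite strands; whether the counting used strand was not given in the sources used here. SdhB, Irp-1A and Irp-1B each had 1 transcript, and SdhB overlaps CG15237 on the other strand, which had 484 to 665 RNA counts. For Mvl, the footprints moved between transcripts from library to library. FBtr0089521 held from 0% to 100% of them, and FBtr0301478 was called in footprints and in translation efficiency on 26 counts in the mutant 1 library and 0 in the other 5 Ribo-Seq libraries. That call was lost with all 11 libraries (adjusted p 1.0) and in edgeR (adjusted p 1.0).

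Of 27 other genes of iron handling, heme synthesis and iron-sulfur cluster assembly, 23 passed the minimum, and 0 were called in any of the 3 contrasts by DESeq2 or edgeR, with 0 at an unadjusted p under 0.05 in either. Their median changes were 0.02 for RNA, 0.04 for footprints and -0.02 for translation efficiency. The largest positive changes were of Pbgs (0.26, SE 0.23) and Coprox (0.15, SE 0.24) in RNA and of Fdx1 (0.45, SE 0.59) and Ppox (0.42, SE 0.34) in footprints. Pbgs, Coprox and Ppox are enzymes of heme synthesis, and Fdx1 is a mitochondrial ferredoxin. The largest negative changes were of the multicopper oxidase Mco1 (-0.27, SE 0.21) and of MagR, a cluster assembly protein (-0.20, SE 0.31), in RNA, and of the heme oxygenase Ho (-0.23, SE 0.21) and MagR (-0.22, SE 0.46) in footprints.

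Mco1 had the largest change in translation efficiency of the 23 genes, 0.55 (SE 0.33, unadjusted p 0.101, DESeq2 adjusted p 1.0). Its RNA was 26.5 and 28.3 CPM in wild-type and 20.7, 23.5 and 23.8 CPM in mutants. Its footprints were 33.4, 39.0 and 34.3 CPM against 47.4, 44.5 and 37.0 CPM. RNA was lower in every mutant library, while the footprints of the genotypes overlapped. The share of all genes with RNA lower in this way was not counted. Fdx1 came next at 0.37 (SE 0.68), and Coprox (-0.27, SE 0.36) and Ho (-0.26, SE 0.26) were the lowest.

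Heme is another major use of iron, and the enzymes of its synthesis differed in footprints per RNA. Urod, which removes carboxyl groups from the porphyrin ring, had 92.4 to 99.5 CPM of RNA and 173 to 193 CPM of footprints, a mean log2 ratio of 0.95 ± 0.07 (SD, n = 5), at the 86.96th percentile in wild-type flies. Coprox and Ppox, which act after it, were at -0.75 ± 0.41 and -0.85 ± 0.27. Every replicate of Urod lay above every replicate of these enzymes. Alas, the first enzyme, was at 0.16 ± 0.10 and FeCH, which inserts the iron, at 0.57 ± 0.26. Ho was at 0.33 and 0.59 in wild-type and at 0.17, 0.18 and 0.22 in mutants, lower without overlap, and Mco1 was higher without overlap, beside the 9.51% and 7.4% of all genes given above.

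**Figure D5:**
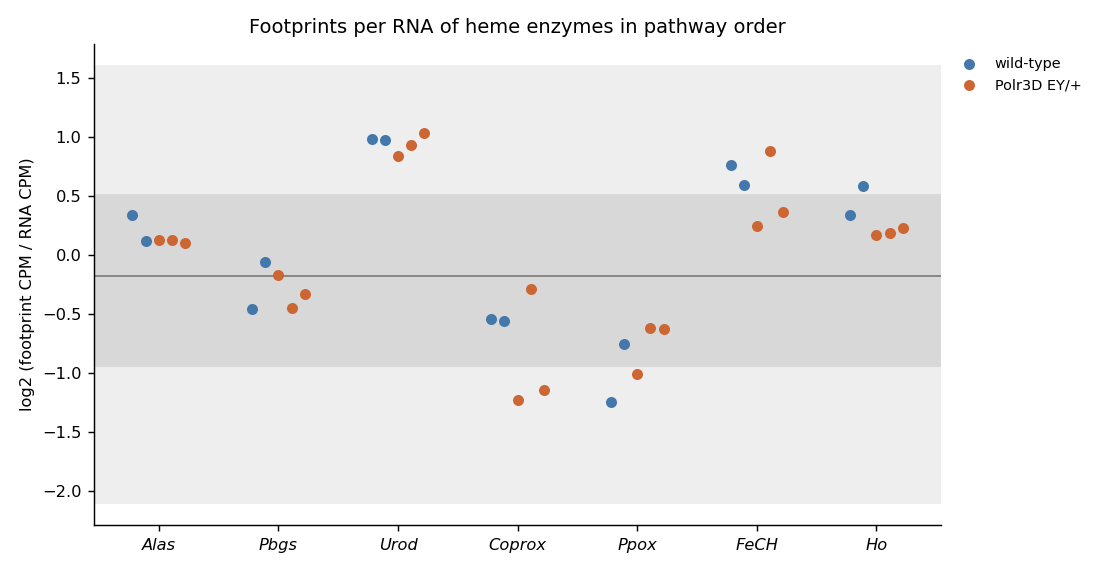
Log2 of footprint CPM over RNA CPM at the same replicate number for 6 enzymes of heme synthesis in pathway order and the heme oxygenase Ho, which degrades heme, in wild-type (blue) and *Polr3D EY/+* flies (orange); the line and bands are the median and the 25th to 75th and 5th to 95th percentiles of 7624 protein-coding genes in wild-type flies. All 5 points of Urod lay between 0.84 and 1.03, and all points of Coprox and Ppox lay below 0.

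The genes whose levels varied most like the ferritins and Tsf1 were sought over the 11 libraries, by Pearson's r of log2 CPM centred within each assay among 7623 genes. This is a description, since the libraries share their genotype difference and depth. Closest to Fer1HCH were Srr (0.94), CG11382 (0.94) and MFS12 (0.91), and Fer2LCH was at rank 44 (0.82). Closest to Fer2LCH were CG17633 (0.94), Jon99Fii (0.93) and Sox14 (0.92), with Fer1HCH at rank 24 and SdhB at rank 42 (0.80). Closest to Tsf1 were CG16772 (0.92), cass (0.91) and Wdfy2 (0.82), and Irp-1A was far from Fer1HCH (-0.70).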

How the data were processed

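The authors trimmed reads with Cutadapt, digested lysates with RNase I for Ribo-Seq, and ran Salmon against a decoy-aware BDGP6.32 transcriptome that included noncoding RNA. The values the authors deposited are estimated counts per transcript from Salmon, held as whole numbers and not normalised. The deposited table held 11 libraries. The RNA-Seq library of wild-type 3 was not analysed here. The paper removed that replicate as lying apart from the others in RNA-Seq. Its Ribo-Seq library is in the wild-type footprint means and in the comparisons of footprint overlap. Of 28367 features, 22 did not match the Ensembl annotation, release 115, and were kept under their own names. The rest were summed by gene. This gave 14405 rows in all, counted here as genes, 12759 of them protein-coding. Coordinates are of the BDGP6 assembly.

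DESeq2 (1.42.0, R 4.3.3) was fitted to all gene sums of 10 libraries with the study's model (replicate number, genotype, assay, genotype by assay), and two-sided Wald p-values were adjusted by the Benjamini-Hochberg method; an adjusted p under 0.1 was called. The script was tested on simulated counts. edgeR (4.0.16) with its quasi-likelihood test, other size factors, filters, thresholds and sets of libraries were alternatives. Intervals are at the 95% level. RNA per kb used transcript lengths, and footprints per kb the coding length of the transcript with the most RNA. The genes, lists and alternatives were chosen with earlier results of these data known. All 8 genes were named in each contrast, as were the 2 largest positive and the 2 largest negative changes among other iron genes above a mean of 10 counts in each assay, the partners of SdhB, the aconitases and the 3 genes most like Fer1HCH, Fer2LCH and Tsf1. The heme enzymes, the within-set RNA values and the ratios without male marker libraries were added after values were seen. 1 gene of the other iron genes is counted in the list totals and is not reported here.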

Additional observations from a re-analysis of the deposited data

How the results depend on the processing

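The counts of called genes depended on the fit, while those among the 8 iron genes stayed at 0 to 2. RNA calls numbered 135 (118 higher, 17 lower) and became 5 with edgeR, 23 among genes averaging 10 counts or more in both assays, 66 with all 11 libraries, 41 with no replicate block (18 higher, 23 lower), 54 with each assay alone, 4 without the mutant 1 RNA-Seq library and 5 to 50 with a replicate left out. Footprint calls numbered 52 and became 2 with edgeR, 10 with that minimum, 77 with all 11 libraries, 58 with no replicate block, 29 with Ribo-Seq alone, 24 without the mutant 1 RNA-Seq library, 14 with Ribo-Seq alone without wild-type 2 and mutant 3, and 2 to 33 with a replicate left out. Translation efficiency calls numbered 41 (1 higher, 40 lower) and became 0, 1, 10 and 7 with edgeR, the minimum, all 11 libraries and no replicate block (5 higher, 2 lower), 2 without the mutant 1 RNA-Seq library and 0 to 19 with a replicate left out. Leaving out a replicate leaves fewer samples; apart from that the cause was not tested. Among the 8 genes, RNA calls were 0 and became 1 with each assay alone (Tsf1), and footprint calls were 0 and became 1 with all 11 libraries, with no replicate block and without the mutant 1 RNA-Seq library (Fer1HCH) and 2 with Ribo-Seq alone (Fer1HCH, Fer2LCH). Calls of their transcripts in footprints went from 2 to 0 in edgeR, and in translation efficiency from 1 to 0 in edgeR and with all 11 libraries.

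Of 336 gene values under alternatives, 316 kept their direction and side of the threshold, 6 became called and 14 changed sign without a call. Those were, with a replicate left out, Irp-1B RNA (-0.20 to 0.41; below 0 without wild-type 1 and, at -0.092, without mutant 1), Mvl RNA (-0.28 to 0.17; above 0 without wild-type 2 and, at 0.13, without mutant 2), Tsf1 footprints (-0.19 to 0.25; below 0 without wild-type 2 and, at -0.042, without mutant 3), Irp-1B translation efficiency (-0.60 to 0.066; above 0 without wild-type 1) and Mvl translation efficiency (-0.072 to 0.36; below 0 without wild-type 2 and, at -0.00064, without mutant 2). The others were Irp-1B RNA without the mutant 1 RNA-Seq library (-0.053), Mvl RNA with no replicate block (0.049) and with RNA-Seq alone (0.053), and, with Ribo-Seq alone without wild-type 2 and mutant 3, footprints of Tsf1 (-0.11) and Mvl (-0.017). Without the libraries with male marker counts, an alternative chosen after seeing the data, log2 footprints per RNA in mutants rest on mutant 2 alone (n = 1), at 1.76 for Fer2LCH, 1.71 for Irp-1B and 0.54 for Tsf1. Over the 11128 genes with a count in each assay in place of 7624, percentiles of footprints per RNA were lower for the 7 genes, for Fer2LCH 85.5 and 86.3. Deviations of same-numbered libraries correlated at -0.50 to 0.05. Differently numbered libraries were not compared, so these values cannot decide whether the replicate numbers pair the samples. The block was kept as the study used it. The planned share of Fer1HCH counts on transcripts with an iron-responsive hairpin was not run, since no transcript sequence was used.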
